A study of Rattus norvegicus with 27 samples.

Results

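The last days before birth were examined in parotid acini of the rat, the serous end pieces of this salivary gland, by comparing the 3 arrays of the day of birth (P0) with the 3 arrays of embryonic day E18. The 3 arrays of E20 served as the intermediate point. These 9 arrays were taken by age from a series of 27 arrays that covers 9 ages from E18 to P25, and every probe set that is not an array control was tested. The rats were Sprague Dawley (spelled "Sprauge Dawley" in the labels), with no genetic change or agent named for any group, and the labels give neither the sex nor the number of animals behind an array. Per the study's methods, cells were cut by laser from sections of heads, divided sagittally before embedding, at E18, E20, P0, P2 and P5 and from the dissected gland later, and the arrays of an age came from separate litters. An array thus holds the RNA of a captured patch of tissue, and more cells of a type or more RNA per cell cannot be told apart. The methods name decapitation for embryos and carbon dioxide otherwise, so the way of killing may differ between the embryos and P0.

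Parotid acinar cells secrete amylase, DNase and a set of small antimicrobial and lubricating proteins into saliva. In the rat the gland bud has branched by the end of gestation, the end buds form lumens and acinar cells begin to store secretory granules around birth, while the adult mixture of secreted proteins is completed during suckling and weaning. Growth and branching of the bud depend on fibroblast growth factors made around and within the epithelium, and contractile myoepithelial cells come to wrap the acini. The question here was which transcripts change over this interval, and whether they change before E20 or between E20 and birth.

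Levels are given as deposited, in log2 units from the robust multi-array average (RMA), so that 1 unit is a doubling. The median of all probe sets was 5.98 at E18, 6.03 at E20 and 6.02 at P0, and the lower quartile was 4.29, 4.35 and 4.31. Arrays of one age correlated with each other at 0.891 to 0.949 and arrays of different ages at 0.893 to 0.961, and only 2 of the 9 arrays were most like an array of their own age. The leading principal component, with 26.6% of the variance of the 9 arrays, had 2.01% of its own variance between ages and 83.2% between replicate numbers. The next component, with 16.1%, had 75.9% between ages. For Gapdh, the level at the 3' end minus that at the 5' end, a sign of RNA quality, was 1.57 to 2.76 at E18, 1.72 to 2.22 at E20 and 1.21 to 2.31 at P0, and the ages overlapped.

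The arrays numbered 1 stood apart in markers of neighbouring tissue. The mean of 31 skeletal muscle genes was 10.20, 5.61 and 5.77 on the E18 arrays, 9.98, 7.31 and 5.51 on the E20 arrays and 9.10, 5.69 and 8.01 on the P0 arrays, in the order of their replicate numbers. The muscle troponin Tnnc2 was at 13.66, 13.76 and 13.39 on the arrays numbered 1. The mean of 17 epidermis and oral epithelium genes was 9.18, 8.67 and 8.16 on the arrays numbered 1 and between 4.88 and 5.87 on the other 6. Cartilage and bone genes (19) averaged 9.21 on E18 replicate 1, 7.50 on E20 replicate 1 and between 5.51 and 6.34 on the remaining arrays. Muscle and skin RNA was thus present at all 3 ages, whereas the highest cartilage level was that of 1 E18 array. Of the 19 cartilage and bone genes, 17 had a lower and 2 a higher mean at P0 than at E18 (median difference -0.82). The calls were therefore also made without the arrays numbered 1 and with these 3 marker lists as covariates.

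**Figure D1:**
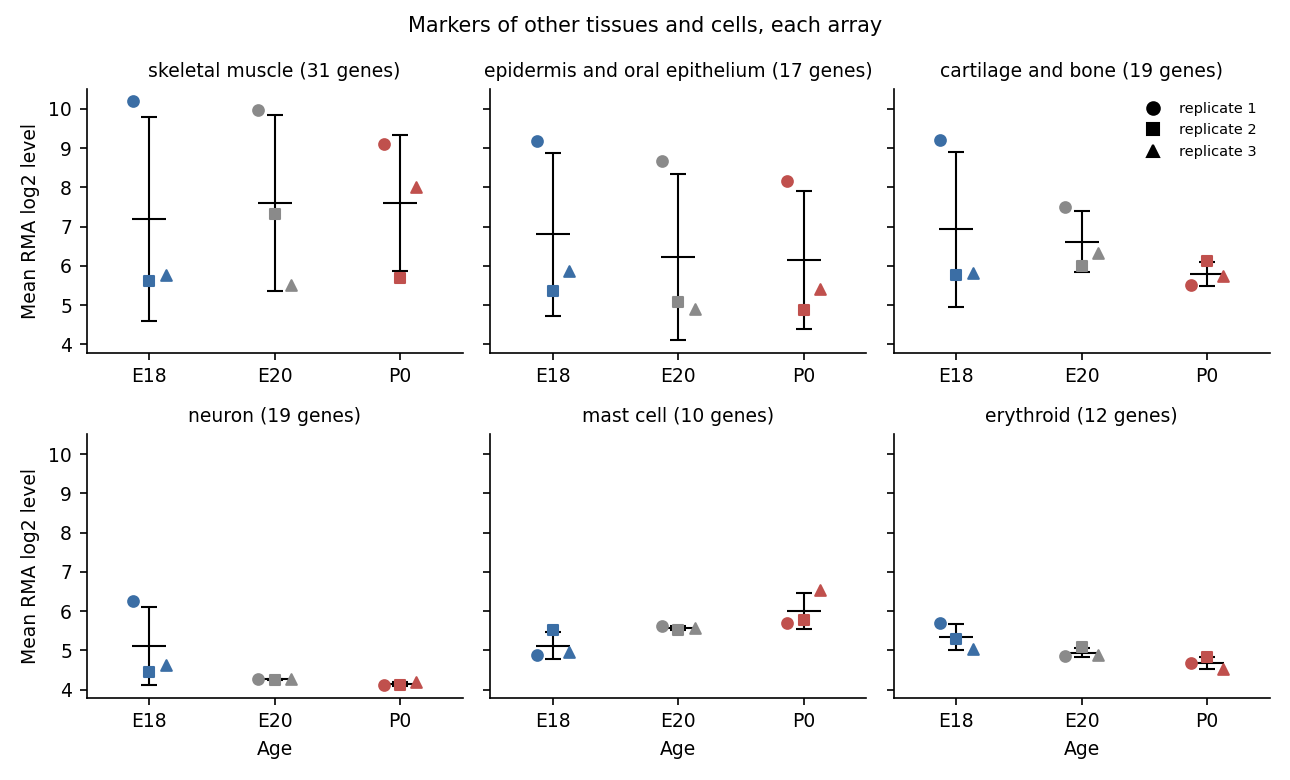
Mean RMA log2 level (y axis) of 6 lists of marker genes on each array of E18, E20 and P0 (x axis); circles, squares and triangles are replicates 1, 2 and 3, and black bars are the mean ± SD of the 3 arrays. Replicate 1 is highest for muscle and epidermis at every age, from 8.16 to 10.20, while mast cell and erythroid lists move with age.

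Between E18 and P0, 53 of 31042 probe sets passed the test (limma, adjusted p below 0.05), which is 0.171% of those tested. Of these, 38 (0.122%) rose and 15 (0.0483%) fell. At an unadjusted p below 0.05 there were 2323 probe sets, and the median difference over all probe sets was -0.003 log2 units. The 38 rising probe sets covered 24 named genes and the 15 falling ones 10 named genes, while 11 and 5 probe sets respectively had no single gene symbol. In all 53 the P0 arrays lay entirely on one side of the E18 arrays. Over 14217 genes this held for 6.15% above and 6% below. As the 53 were chosen by this same difference, their lack of overlap is no added support. The rises ranged from 1.30 to 6.70 log2 units and the falls from -1.16 to -3.29. In all 15 probe sets that fell, the mean at P0 was below 6, that is, below the median of the array, whereas the median P0 level of those that rose was 8.94. The spread in this test came from all 27 arrays. When only the 9 arrays of E18, E20 and P0 were fitted, 3 of the 53 passed: Bpifa2 (adjusted p = 0.00952), Fgf1 (0.0399) and 1 unnamed probe set.

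Without the arrays numbered 1, only 18 of the 53 still passed. All 53 kept their direction, which leaving out arrays could not change, as E18 and P0 did not overlap in them. Of the genes described below, Bpifa2, Bpifa2f, Csap1, Mylk, Cnn1, Gldc, Cndp1, Tifab, Ppp6r1 and LOC100363236 passed in that fit. Fgf1 (adjusted p = 0.0676), Mcpt1l1 (0.0640), Vof16 (0.0834), Serpinb6b (0.0515), Xdh (0.0583), Fosb (0.0682), Kif26b (0.0583) and Ppp2r2b (0.0773) did not pass there. H3c1 (0.216), Fez1 (0.410), Prr5l (0.238), Ahsp (0.114) and Etv1 (0.182) lay further from the threshold. With the marker covariates 23 of the 53 passed.

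The largest rises were those of secreted proteins of serous salivary glands. Bpifa2, also known as parotid secretory protein (PSP), binds bacterial lipopolysaccharide and is stored in acinar granules. Its level was 3.87, 4.05 and 3.22 on the E18 arrays, 5.70, 7.60 and 6.82 on the E20 arrays and 10.64, 9.79 and 10.81 on the P0 arrays. No arrays of different ages overlapped. Bpifa2 rose by 6.70 ± 0.34 log2 units (SE; adjusted p = 8.16e-11), from a level below the lower quartile of the array. That E18 level was not shown to be above background, so no fold is given. The rise was 6.67 without the arrays numbered 1 and 6.57 with the marker covariates.

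Bpifa2f, the submandibular gland protein B (Smgb) of neonatal rats, is a close relative of Bpifa2. It was at 6.53, 8.65 and 8.57 at E18, 11.04, 12.12 and 11.03 at E20 and 13.22, 12.75 and 13.04 at P0. Again no ages overlapped. It rose by 5.08 ± 0.38 (adjusted p = 9.15e-08), or 33.9-fold. Csap1, common salivary protein 1, was at 7.38, 9.93 and 9.82 at E18, 11.53, 12.22 and 10.68 at E20, and its P0 arrays were close together at 13.05 ± 0.05 (SD, n = 3). It rose by 4.0 ± 0.44 (adjusted p = 8.07e-05), or 16.1-fold. For both, E18 replicate 1, the array with the most muscle and cartilage signal, was lowest. Without it the rise was 4.39 for Bpifa2f and 3.17 for Csap1 (adjusted p = 2.92e-09 and 3.18e-06). At P0 the levels of Bpifa2f and Csap1 lay near the top of the array's range, whose highest value was 14.63.

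**Figure D2:**
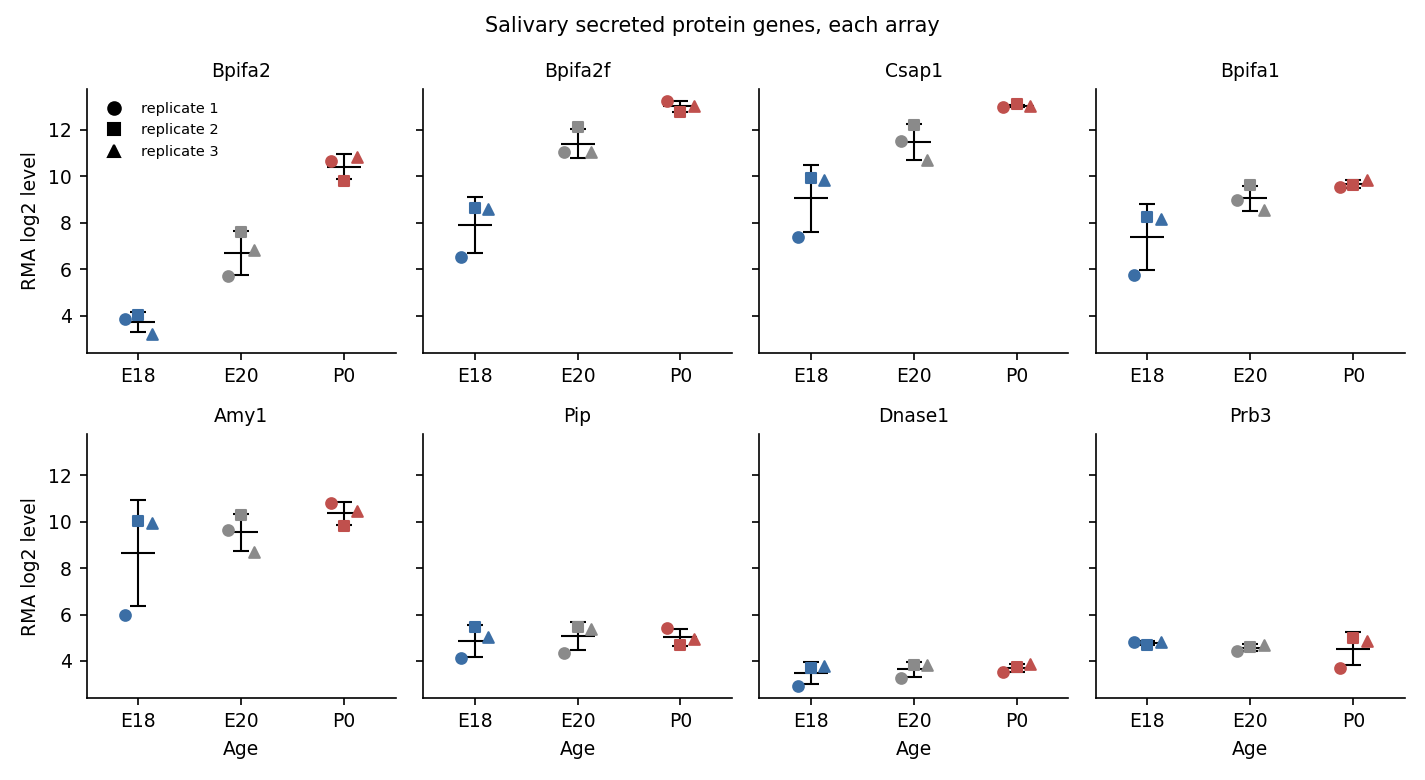
RMA log2 level (y axis) of 8 genes of secreted salivary proteins on each array of E18, E20 and P0 (x axis); symbols are replicates 1 to 3 and black bars the mean ± SD of the 3 arrays. Bpifa2, Bpifa2f and Csap1 climb with no overlap between E18 and P0, Amy1 is already near 10 on 2 of the 3 E18 arrays, and Pip, Dnase1 and Prb3 stay below 6.

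Bpifa2 and Bpifa2f lie beside each other on chromosome 3 (RefSeq, GRCr8, chr3:162953538-162961497 and chr3:162981414-162993621), within the cluster of BPI fold genes, whereas Csap1 lies at chr10:13414952-13420913. Their promoters are shown because these 3 genes had the largest rises and rose together. Each runs from 250 bases before to 50 after the transcript start used by RefSeq, on the plus strand of GRCr8, and capitals mark ATATAAGG, a TATA-type sequence, and AGGAAG, which holds the GGAA core that ETS factors such as Etv1 bind, read on either strand (AGGAAG appears as CTTCCT where it is on the minus strand).
Bpifa2, chr3:162953288-162953587: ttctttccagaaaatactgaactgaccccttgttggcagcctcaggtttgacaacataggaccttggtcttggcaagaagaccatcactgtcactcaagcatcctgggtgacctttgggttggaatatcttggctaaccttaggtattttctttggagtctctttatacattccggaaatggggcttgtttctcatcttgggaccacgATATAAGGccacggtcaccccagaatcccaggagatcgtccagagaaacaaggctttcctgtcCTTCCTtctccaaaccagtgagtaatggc
Bpifa2f, chr3:162981164-162981463: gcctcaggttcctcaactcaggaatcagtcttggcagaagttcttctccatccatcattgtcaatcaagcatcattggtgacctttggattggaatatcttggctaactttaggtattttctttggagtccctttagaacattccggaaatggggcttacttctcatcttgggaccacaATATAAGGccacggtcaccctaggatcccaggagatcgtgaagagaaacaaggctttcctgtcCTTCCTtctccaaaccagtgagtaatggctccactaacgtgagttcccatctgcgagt
Csap1, chr10:13418692-13418991: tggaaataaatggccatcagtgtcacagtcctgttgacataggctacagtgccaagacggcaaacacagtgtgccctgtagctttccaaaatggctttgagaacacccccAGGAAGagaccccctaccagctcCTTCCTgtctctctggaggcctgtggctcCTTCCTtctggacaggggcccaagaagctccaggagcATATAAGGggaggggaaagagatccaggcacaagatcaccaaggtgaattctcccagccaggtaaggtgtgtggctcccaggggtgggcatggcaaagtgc

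Shifted by 29 bases, the Bpifa2 and Bpifa2f promoters matched at 169 of 271 overlapping bases (62.4%) without gaps and shared a run of 51 identical bases, against 90 of 296 bases (30.4%) and a longest run of 11 for Bpifa2 and Csap1. ATATAAGG, chosen after these sequences had been read, began 42 bases before the start in Bpifa2, 71 in Bpifa2f and 51 in Csap1. It was in 3 of the 21 rising genes that had a promoter (14.3%), in 1 of the 9 falling ones (11.1%, Kif26b) and in 0.867% of the 27457 promoters of the same length. AGGAAG was in all 3, and in 12 of the 21 rising genes that had a promoter (57.1%), 4 of the 9 falling ones (44.4%) and 34.3% of all promoters. It began 21 bases after the start in Bpifa2, 8 before it in Bpifa2f and 140, 117 and 88 before it in Csap1. Other GGAA cores in the printed sequences are not marked. CAGCTG, an E-box of the kind bound by the acinar factor Bhlha15, was in 4 of the 21 (19%), none of them these 3 genes, and in 15.1% of all promoters. The study located CAGCTG around exon 3 of Bpifa2, outside the stretch printed here. In its reporter assays Bhlha15 with Tcf3 activated a construct holding that region, and not the promoter alone. Spliced Xbp1 activated the Bpifa2 promoter, in which the study marked CCACG boxes that are not capitalised here. In these 3 promoters no motif overlapped another. The RefSeq start used for Csap1 lies inside its gene record, and a match describes the letters only.

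Of the other BPI fold genes of the chromosome 3 cluster on the array, named here after their values were seen, Bpifa1 was the nearest to a call. Bpifa1, an airway and oral defence protein also called Plunc, was at 5.73, 8.24 and 8.16 at E18, 8.99, 9.62 and 8.53 at E20 and 9.54, 9.64 and 9.86 at P0, a difference of 2.30 ± 0.51 that did not pass (adjusted p = 0.0711). Bpifb4 differed by 0.77 ± 0.42. Bpifa5, Bpifb1, Bpifb2 and Bpifb6 had P0 means between 3.67 and 4.69 and differences between -0.04 and 0.18. A rise was thus called for 2 of 8 measured members of this cluster, against 0.122% of all probe sets. These 2 are the genes for which the cluster was examined, so the count adds nothing about the cluster.

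Of 36 measured genes in the list of salivary secreted proteins, Bpifa2 was the only one that passed between E18 and P0 (Bpifa2f and Csap1 are not on this list). The median difference of the list was 0.14, against -0.026 over all genes. In 4 of the 36 every P0 array lay above every E18 array and in none below, against 6.15% and 6% of 14217 genes. Amy1, salivary amylase, was at 6.0, 10.02 and 9.92 at E18 and 10.78, 9.83 and 10.46 at P0. Its difference was 1.71 ± 0.64 (adjusted p = 0.474), and the ages overlapped. Lcn2, an iron-sequestering defence protein, was at 9.91, 11.98 and 11.33 at E18 and 12.49, 12.49 and 12.20 at P0 (1.32 ± 0.48, adjusted p = 0.438).

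Most of the listed secreted proteins lacked a high signal at E18 and P0. In 28 of the 36 genes every E18 and P0 array lay below 7, a limit somewhat above the array median. Of these 28, 19 were higher and 1 was lower at P25 than at P2, ages at which gland and head sections respectively were used. In that comparison 10.4% of all probe sets were higher and 8.17% lower. Dnase1 had a P0 mean of 3.71 and a P25 mean of 13.87, Pip, the prolactin-induced protein, 5.01 and 14.07, and Prb3, a proline-rich protein, 4.53 and 13.94. Chia, acidic chitinase, was at 3.05 at P0 and 13.51 at P25. Lpo, the salivary peroxidase, was at 3.15, 3.53 and 3.33 at E18 and 3.51, 6.54 and 3.97 at P0, with overlap. Amy1, Bpifa2f and Csap1 thus had E18 means above the array median, while Dnase1, Prb3 and Chia had means below it at E18, E20 and P0.

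Transcription factors of acinar cells differed by small amounts, mostly with the higher value at P0. Of 36 measured acinar and network factors 1 passed, Etv1, and the list's median difference was 0.50. Every P0 array lay above every E18 array in 6 of the 36 (16.7%) and below in 1 (2.78%), against 6.15% and 6% of all genes. The list median stayed between 0.43 and 0.53 in 17 other fits. Etv1, an ETS factor downstream of FGF receptors, had 5 probe sets, of which 4 passed, with rises of 1.30 to 1.54. The probe set with the highest level was at 9.77, 10.98 and 10.72 at E18, 11.03, 11.43 and 11.02 at E20 and 11.83, 11.70 and 11.84 at P0 (1.30 ± 0.24, adjusted p = 0.0255). Without the arrays numbered 1 its rise was 0.92 and did not pass (adjusted p = 0.182). The related Etv4 was at 7.92, 7.21 and 6.66 at E18 and 6.30, 5.19 and 5.26 at P0, a difference of -1.68 ± 0.53 that did not pass (adjusted p = 0.310).

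The regulators of the secretory programme did not pass. Bhlha15 (MIST1), which drives granule maturation, was at 2.87, 5.52 and 4.20 at E18 and 5.44, 5.66 and 6.37 at P0 (1.63 ± 0.51, adjusted p = 0.318). Xbp1, the factor that expands the endoplasmic reticulum (ER), was at 8.70, 8.65 and 8.99 at E18 and 9.27, 9.63 and 9.35 at P0 (0.64 ± 0.29, adjusted p = 0.632). Tfcp2l1 and Klf5, both epithelial factors, had the highest levels of the list, with P0 means of 12.34 and 12.05 and differences of 0.27 and 0.38. Egr1 and Foxc1 differed by 1.65 ± 0.36 and 1.00 ± 0.26 without overlap of the ages (adjusted p = 0.0727 and 0.158).

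Fgf1, a fibroblast growth factor of epithelial and mesenchymal cells, rose. It was at 6.98, 6.10 and 6.35 at E18, 8.95, 8.65 and 8.35 at E20 and 9.24, 9.99 and 9.73 at P0, with no overlap between ages. The rise was 3.18 ± 0.60 (adjusted p = 0.0255), and the other 2 probe sets of Fgf1 differed by 1.62 and 1.73 without passing. Fgf1 and Etv1 were the 2 called genes of 46 in the list of FGF and EGF signalling, whose median difference was 0.03. The feedback inhibitors Spry1, Spry2 and Spry4 and the phosphatase Dusp6 differed by 0.30, 0.05, -0.19 and 0.02. The receptor Fgfr2 was at 10.44, 9.87 and 10.03 at E18 and 9.82, 9.62 and 9.66 at P0 (adjusted p = 0.984). These 5 genes were chosen after their values were seen, as they are the usual readouts and receptors of the pathway.

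Of the contractile genes, 1 probe set of Mylk and the probe set of Cnn1 rose. Mylk, the myosin light chain kinase of smooth muscle and myoepithelial cells, was at 7.48, 6.60 and 6.32 at E18, 8.45, 6.71 and 8.62 at E20 and 10.24, 9.84 and 9.86 at P0 (3.18 ± 0.52, adjusted p = 0.00860). The other probe set of Mylk, which has the higher level, differed by 1.17 ± 0.28 and did not pass (adjusted p = 0.102). Cnn1, the smooth muscle calponin, was at 7.32, 6.04 and 6.33 at E18, 6.94, 6.4 and 5.59 at E20 and 8.97, 9.58 and 9.51 at P0 (2.79 ± 0.45, adjusted p = 0.00839). E18 and E20 overlapped for Cnn1, and both lay below P0. Of the 19 myoepithelial and smooth muscle markers, on which Mylk is represented by its other probe set, Cnn1 was the only one called. The list's mean was between 7.85 and 8.70 at E18 and between 8.62 and 8.79 at P0, and the ages overlapped. Its median difference was 0.24, with 14 positive and 5 negative differences. Every P0 array lay above every E18 array in 5 of the 19 (26.3%) and below in 2 (10.5%), against 6.15% and 6% of all genes. At an unadjusted p below 0.05 in limma there were 4 higher and 0 lower. The actin Acta2 (0.60 ± 0.75) and the basal keratins Krt5 (-0.41 ± 0.55) and Krt14 (-0.54 ± 0.56) did not pass; these were named after their values were seen. Without the arrays numbered 1 the rises of Mylk and Cnn1 were 3.39 and 3.36 and both passed.

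Mcpt1l1, a mast cell chymase-like protease, rose by 2.85 ± 0.54 (adjusted p = 0.0255). It was at 5.90, 5.97 and 5.05 at E18, 7.90, 6.12 and 7.32 at E20 and 8.08, 7.98 and 9.42 at P0. Of 10 mast cell markers none passed, and 7 had a positive and 3 a negative difference. Their mean was 4.89, 5.52 and 4.96 at E18, between 5.51 and 5.63 at E20 and 5.70, 5.78 and 6.53 at P0, and the ages E18 and P0 did not overlap. The protease Cpa3 was at 6.23, 6.32 and 5.03 at E18 and 8.32, 8.31 and 9.74 at P0, a difference of 2.93 ± 0.76 that did not pass (adjusted p = 0.153). The part of mast cell number in the rise of Mcpt1l1 was not tested. Mcpt1l1 belongs to a family of near-identical proteases, which its probe set may not separate.

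Fosb, an immediate early gene of the AP-1 family, was at 4.04, 4.65 and 4.41 at E18, 3.96, 5.61 and 4.77 at E20 and 6.30, 6.99 and 6.97 at P0, and rose by 2.39 ± 0.45 (adjusted p = 0.0255). It was the 1 called gene of 32 in the list of immediate early and heat shock genes. That list had a median difference of 0.50, and in 9 of the 32 every P0 array lay above every E18 array (28.1%, against 6.15% of all genes), with none below. The list's median difference was 0.01 from E18 to E20 and 0.35 from E20 to P0. The step from E20 to P0 is also that from embryo to pup, between which the way of killing may differ. Its part in these values was not tested. Egr1 was at 10.17, 10.70 and 9.37 at E18, 10.53, 10.09 and 10.06 at E20 and 11.61, 11.63 and 11.95 at P0. Dusp1 was at 7.84, 6.95 and 7.65 at E18, 8.09, 7.45 and 7.71 at E20 and 10.10, 8.44 and 9.54 at P0 (1.88 ± 0.50, adjusted p = 0.179), and Egr2 differed by 2.06 ± 0.68 (adjusted p = 0.361).

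The remaining large rises were of genes with other roles. Xdh, xanthine dehydrogenase, was at 6.31, 7.34 and 7.54 at E18, 9.05, 9.27 and 8.27 at E20 and 9.56, 8.94 and 9.92 at P0 (2.41 ± 0.35, adjusted p = 0.00244). Serpinb6b, an intracellular protease inhibitor, was at 3.75, 4.10 and 4.22 at E18 and 5.88, 6.31 and 7.54 at P0 (2.56 ± 0.47, adjusted p = 0.0215). Vof16, a transcript of unknown function here, rose by 2.62 ± 0.54 in 1 probe set (adjusted p = 0.0478) and differed by -0.10 in the other. H3c1, a replication-dependent H3 histone, was near the floor at E18 (3.50, 2.87 and 3.12) and at 7.43, 4.27 and 7.04 at P0, and rose by 3.08 ± 0.61 (adjusted p = 0.0366). P0 replicate 2 was close to the E18 arrays, and without P0 replicate 1 or 3 the rise did not pass (adjusted p = 0.162 and 0.216). Histone genes form a family of near-identical copies, and its level at P2 was back at 3.45.

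The largest falls were those of 2 metabolic genes. Gldc, the glycine decarboxylase that feeds one-carbon metabolism, was at 8.4, 6.86 and 7.78 at E18, 6.78, 5.89 and 7.06 at E20 and 5.4, 3.71 and 4.05 at P0. It fell by 3.29 ± 0.39 log2 units (adjusted p = 0.000252), and E18 and P0 did not overlap. The other 2 probe sets of Gldc were low at E18, at 3.21 and 5.35, and differed by -0.39 and -0.07. Cndp1, the carnosine dipeptidase, was at 5.81, 7.20 and 6.96 at E18, 7.53, 7.49 and 6.78 at E20 and 4.15, 2.96 and 3.14 at P0. It fell by 3.24 ± 0.46 (adjusted p = 0.00187), and E18 and E20 overlapped while both lay above P0.

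Kif26b, an unconventional kinesin involved in epithelial and mesenchymal adhesion in the developing kidney, was at 8.24, 7.40 and 9.01 at E18, 6.14, 4.90 and 5.68 at E20 and 4.80, 5.05 and 5.99 at P0. It fell by 2.94 ± 0.44 (adjusted p = 0.00340) in 1 of its 4 probe sets, and the other 3 had differences between -0.81 and 0.58. Tifab, a regulator of TRAF6 signalling, was at 6.55, 6.88 and 7.78 at E18, 5.02, 4.82 and 4.36 at E20 and 4.84, 3.86 and 4.15 at P0. It fell by 2.78 ± 0.36 (adjusted p = 0.000689). For both genes E18 lay above E20 and P0, and the latter overlapped.

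Ppp6r1, a regulatory subunit of protein phosphatase PP6, fell by 2.08 ± 0.34 (adjusted p = 0.00938). Ppp2r2b, a subunit of the phosphatase PP2A, fell by 2.21 ± 0.40 (adjusted p = 0.0202). The other probe set of Ppp6r1, at 10.99 at E18, differed by 0.01. Prr5l, a partner of the kinase complex mTORC2, fell by 1.90 ± 0.35 (adjusted p = 0.0228), from 6.05, 4.32 and 5.90 at E18 to 3.35, 3.48 and 3.74 at P0. LOC100363236 fell by 2.49 ± 0.48 (adjusted p = 0.0288) from 2.71, 4.98 and 6.15 to 2.09, 1.99 and 2.29, so that E18 replicate 1 was near P0.

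Other cell types moved with some of the falls. Fez1, a kinesin adaptor known mainly from neurons, was at 7.58, 4.80 and 6.67 at E18 and 2.57, 3.01 and 4.61 at P0, and fell by 2.95 ± 0.60 (adjusted p = 0.0473). Without the arrays numbered 1 its difference was -1.92. The mean of 19 neuronal markers was 6.26, 4.45 and 4.62 at E18, between 4.26 and 4.27 at E20 and between 4.11 and 4.20 at P0. Stmn2, a neuronal growth protein, was at 10.02 on E18 replicate 1 and between 4.38 and 5.43 on the other 8 arrays. Ahsp, the chaperone of alpha globin in red cell precursors, was at 8.15, 7.23 and 6.88 at E18 and 5.68, 5.94 and 5.05 at P0, and fell by 1.86 ± 0.38 (adjusted p = 0.0428). The mean of 12 erythroid genes was between 5.03 and 5.71 at E18 and between 4.53 and 4.84 at P0. Ahsp is itself among these 12 and was the only 1 called, and 7 of the 12 were near the floor at these ages. The parts of nerve and of red cell precursors in these falls were not tested.

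The interval was then divided at E20. Between E18 and E20, 5 probe sets passed (0.0161%), 3 higher and 2 lower at E20. Between E20 and P0, 4 passed (0.0129%), 2 in each direction. At an unadjusted p below 0.05 there were 1500 and 1030. These steps share the E20 arrays and add up to the whole difference, and 35 of the 38 rises and 12 of the 15 falls passed in neither step alone. The E20 mean lay between the E18 and P0 means in 37 of the 38 rises and 11 of the 15 falls. The median share of the whole change reached at E20 was 56.8% for the rises and 71.0% for the falls. Choosing probe sets by a large difference between E18 and P0 by itself tends to place E20 between them. These counts and shares therefore do not show that the change was gradual.

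Bpifa2 passed in both steps, with 2.99 ± 0.34 before E20 and 3.71 ± 0.34 after (adjusted p = 0.000189 and 8.47e-06). Bpifa2f passed before E20 (3.48 ± 0.38, adjusted p = 0.000189) and not after (1.60 ± 0.38, adjusted p = 0.519). Csap1 had 2.44 ± 0.44 and 1.57 ± 0.44, neither past the threshold. Kif26b and Tifab passed before E20, by -2.65 ± 0.44 and -2.34 ± 0.36 (adjusted p = 0.0350 and 0.0148), and their later steps were -0.29 and -0.45. Cnn1 and Cndp1 passed after E20, by 3.04 ± 0.45 and -3.85 ± 0.46 (adjusted p = 0.0112 and 0.000477), and their earlier steps were -0.25 and 0.61.

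A difference between the steps was tested directly. It passed for 1 probe set without a gene symbol (0.00322%), with 970 at an unadjusted p below 0.05. This probe set was at 2.78, 2.84 and 2.89 at E18, 5.70, 5.12 and 4.36 at E20 and 3.32, 3.01 and 3.80 at P0. It rose by 2.23 ± 0.27 and then fell by 1.68 ± 0.27 (adjusted p of the difference of steps = 0.00110), a transient signal at E20. The means of the 6 later ages were between 2.92 and 3.19. The difference of steps did not pass for Cndp1 (adjusted p = 0.199) or for any other of the 53. Without the arrays numbered 1 the difference of steps passed for 9 probe sets.

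**Figure D3:**
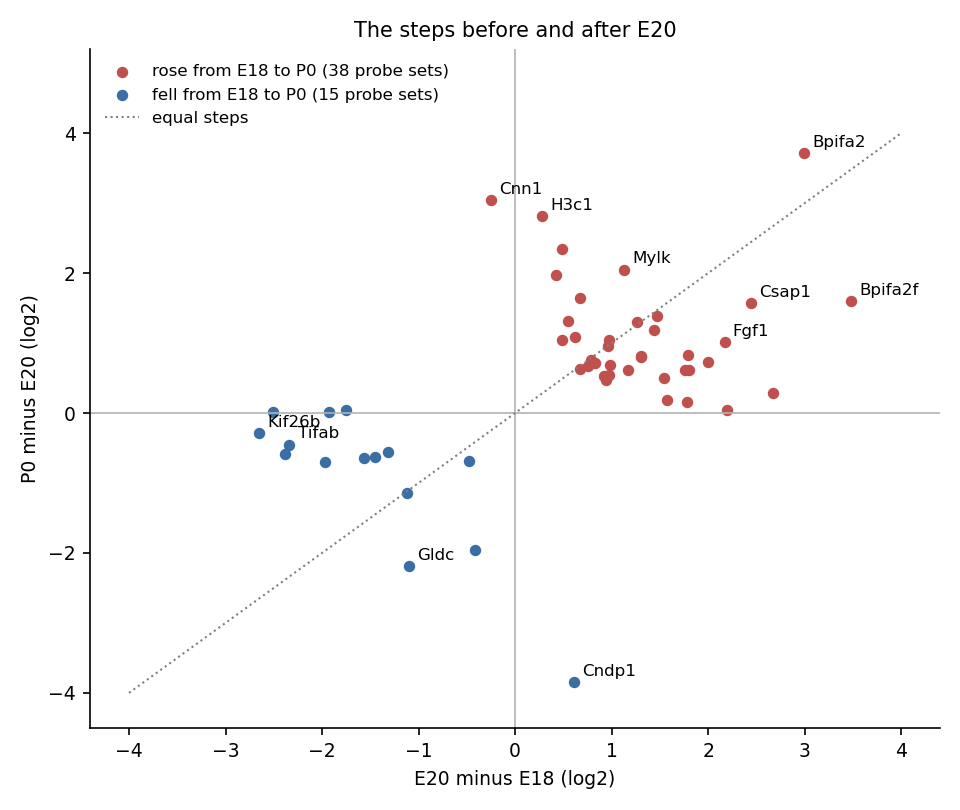
Change from E18 to E20 (x axis) against change from E20 to P0 (y axis), both in log2 units, for the 53 called probe sets; red points rose and blue points fell over the whole interval, and the dotted line marks equal steps. Both steps are above 0 in 37 of the 38 rises, which the choice of probe sets by the whole difference favours. Cnn1 and Cndp1 have their larger step after E20, and Kif26b and Tifab have theirs before it.

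Over 31 gene lists, 27 had 0 members called (limma) between E18 and P0. The 4 with a call were the secreted proteins, the acinar factors, FGF and EGF signalling and the immediate early genes described above. Only 0.171% of all probe sets were called. Most lists of this size would hold none at that share, so a count of 0 says little about a list. The machinery of secretion had medians near 0. Of 40 ER chaperones and disulfide enzymes none passed, with a median of 0.05, and the list mean was between 8.96 and 9.05 at E18 and between 8.95 and 9.13 at P0. Of 41 genes of ER translocation and N-glycosylation none passed (median 0.04), nor did any of 39 of ER to Golgi transport (-0.01). At an unadjusted p below 0.05 there were 2, 0 and 1 in these 3 lists, all higher at P0. After birth 18, 17 and 9 members of these lists were higher at P25, in the dissected gland, than at P2, in head sections, and 0, 1 and 0 were lower. Of all probe sets 10.4% were higher and 8.17% lower in that comparison.

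Regulated exocytosis and fluid secretion held larger single differences. In exocytosis (35 genes, median 0.11) the Rab11 effector Rab11fip1 was at 7.59, 9.40 and 6.71 at E18 and 10.44, 11.27 and 9.94 at P0 (2.66 ± 0.60, adjusted p = 0.0751), and the granule linker Myrip differed by 1.53 ± 0.35 (adjusted p = 0.0803). In fluid secretion and calcium signalling (46 genes, median 0.16) every P0 array lay above every E18 array in 9 genes (19.6%) and below in 1 (2.17%), and in exocytosis in 6 (17.1%) and 4 (11.4%), against 6.15% and 6% of all genes. The acinar chloride channel Ano1 was at 6.39, 7.43 and 7.89 at E18 and 9.30, 8.41 and 9.28 at P0 (1.76 ± 0.39, adjusted p = 0.0737). The muscarinic receptor Chrm3 and the calcium pump Atp2a3 differed by 2.13 ± 0.64 and 1.75 ± 0.49 (adjusted p = 0.274 and 0.218). Atp1b1, the beta subunit of the sodium pump, rose by 1.43 ± 0.28 in 1 probe set (adjusted p = 0.0332) and differed by 0.97 ± 0.22 in the one with the higher level (adjusted p = 0.0746). The water channel Aqp5 was at 6.32, 8.52 and 9.26 at E18 and 9.29, 8.74 and 8.84 at P0, with overlap (named after its values were seen). At an unadjusted p below 0.05 there were 4 higher and 3 lower in exocytosis and 5 higher and 2 lower in fluid secretion.

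Genes of glycolysis and hypoxia mostly had the lower value at P0. None of 40 passed in limma (11 lower and 0 higher at an unadjusted p below 0.05), but the median difference was -0.44, and in 15 of the 40 (37.5%) every P0 array lay below every E18 array, against 6% of all genes, with 1 above. Pfkp, the platelet phosphofructokinase, was at 8.23, 7.96 and 7.27 at E18 and 6.13, 5.61 and 6.30 at P0 (-1.81 ± 0.56, adjusted p = 0.297). Slc16a3, a lactate exporter, differed by -1.59 ± 0.52, Pdk1, which restrains pyruvate oxidation, by -1.12 ± 0.39 and Plod2, a collagen lysyl hydroxylase, by -1.33 ± 0.47, none past the threshold. The list median was -0.36 without the arrays numbered 1 and -0.57 with the marker covariates. Muscle, which is rich in these enzymes, was lower on P0 replicate 1 than on E18 replicate 1 (9.10 and 10.20), while for replicates 2 and 3 it was 5.69 and 8.01 at P0 and 5.61 and 5.77 at E18. Its part in these values was not tested.

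Genes of the dividing and early fetal cell had negative medians, none of them with a call. Of 62 mitosis genes and 53 of DNA replication none passed, with medians of -0.19 and -0.13, and -0.42 and -0.46 without the arrays numbered 1. The replication median ranged from -0.46 to 0.02 over 17 other fits, so its sign was not fixed. At an unadjusted p below 0.05 there were 2 lower in mitosis and 1 higher and 2 lower in replication. The proliferation marker Mki67, named after its values were seen, was between 12.39 and 12.57 at E18 and between 12.36 and 12.64 at P0. Ccne1, cyclin E1, was at 9.34, 9.78 and 9.45 at E18 and 8.14, 7.54 and 7.85 at P0 (-1.68 ± 0.46, adjusted p = 0.208). In fetal chromatin and RNA-binding genes (39, median -0.32) every P0 array lay below every E18 array in 8 (20.5%) and above in 1 (2.56%), against 6% and 6.15% of all genes. Crabp1, a retinoic acid binding protein of the fetus, was at 9.63, 10.11 and 10.92 at E18 and 8.35, 4.38 and 5.78 at P0 (-4.05 ± 1.10, adjusted p = 0.199), a wide spread at P0. Oxidative phosphorylation (45 genes, median -0.05) and the 10 reference genes (0.05) had medians close to 0.

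**Figure D4:**
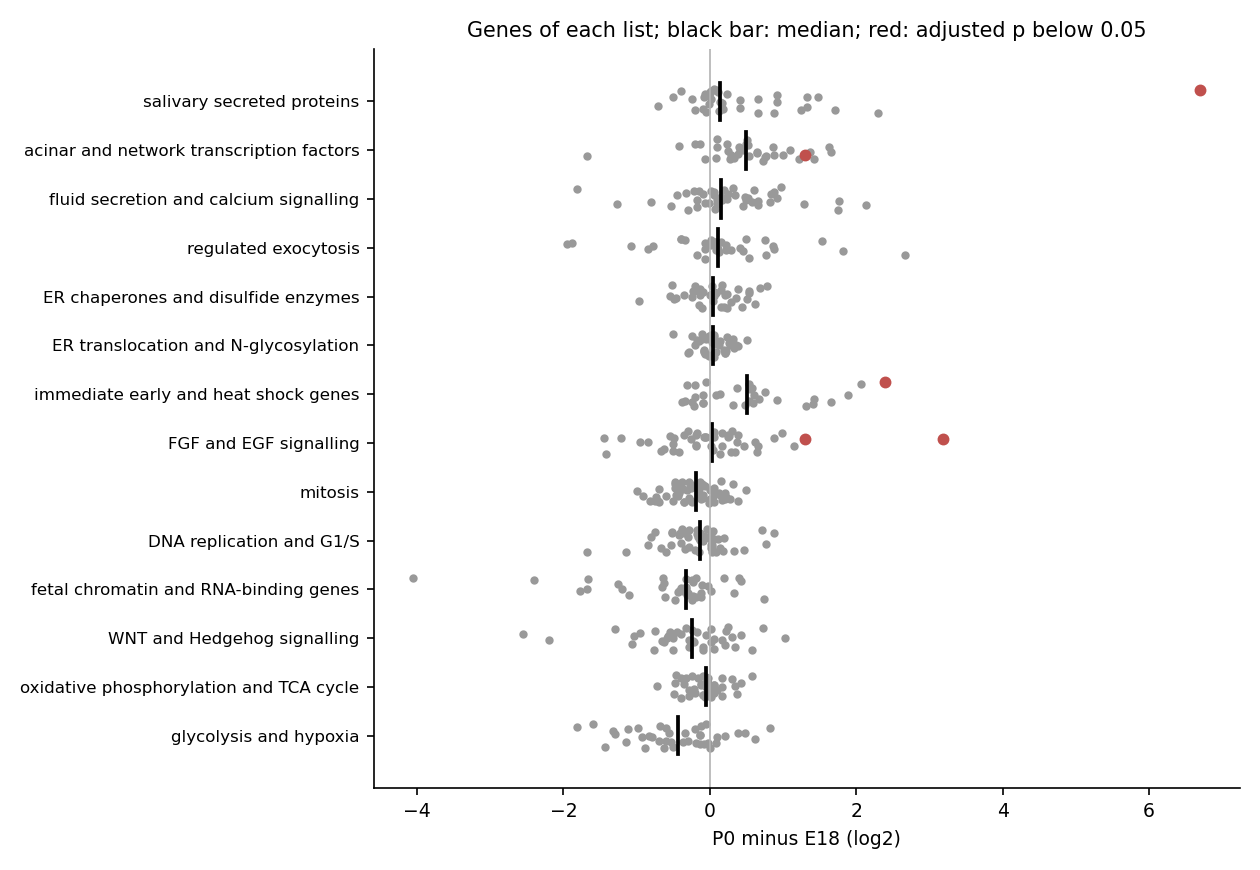
Difference between P0 and E18 in log2 units (x axis) for the measured genes of 14 lists (rows); each point is a gene, black bars are list medians and red points passed the test. Bpifa2 stands alone at 6.70 among the secreted proteins, and the medians run from -0.44 for glycolysis and hypoxia to 0.50 for the acinar factors and the immediate early genes.

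The 53 probe sets were followed after birth by setting P25 against P2. The levels of these arrays did not enter the difference between P0 and E18, but their spread entered the test that chose the 53, so the follow-up is not independent of that choice. Heads were sectioned at P2 and the dissected gland at P25, so age and preparation cannot be told apart here. Of all probe sets 10.4% were higher and 8.17% lower at P25. Of the 38 that rose before birth, 4 (10.5%) were higher at P25 than at P2, 8 (21.1%) were lower and 26 passed in neither direction. Of the 15 that fell, none was higher and 1, Cndp1, was lower (-1.74, adjusted p = 0.0131).

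The 4 that went on rising, named after their values were seen, were Bpifa2 (1.15 ± 0.34, adjusted p = 0.0231), Atp1b1 (1.14, adjusted p = 0.00901), Acss1, a mitochondrial acetyl-CoA synthetase (1.54, adjusted p = 0.00472), and Serpinb6b (1.49, adjusted p = 0.0318). Bpifa2 reached 13.01 at P2 and 14.16 at P25. The 8 that were lower again at P25 were Fgf1 (-3.36, adjusted p = 0.000867), Mylk (-2.55, 0.00253), Cnn1 (-1.75, 0.0122), Mcpt1l1 (-3.83, 7.24e-05), Vof16 (-1.55, 0.0490), 1 of the 3 probe sets of Crebrf, a regulator of the unfolded protein response (-1.56, 0.00673), Pamr1, a secreted protease-like protein (-3.98, 5.63e-08), and 1 unnamed probe set. The other probe sets of Crebrf differed by 0.66 and 0.24 after birth and by 1.62 and -0.22 between E18 and P0, none past the threshold. The other probe sets of Fgf1 (-0.52 and -0.58), Mylk (-0.78) and Vof16 (-1.26) did not pass after birth. Bpifa2f and Csap1 were near their final levels by P2, at 14.14 and 13.76, and did not pass at P25 (-0.77 and 0.23). Bpifa1, which was at 9.68 at P0, was at 8.50 at P2 and 4.07 at P25. The called probe sets of Mylk, Cnn1 and Mcpt1l1 were thus lower at P25, and that of Bpifa2 was higher.

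**Figure D5:**
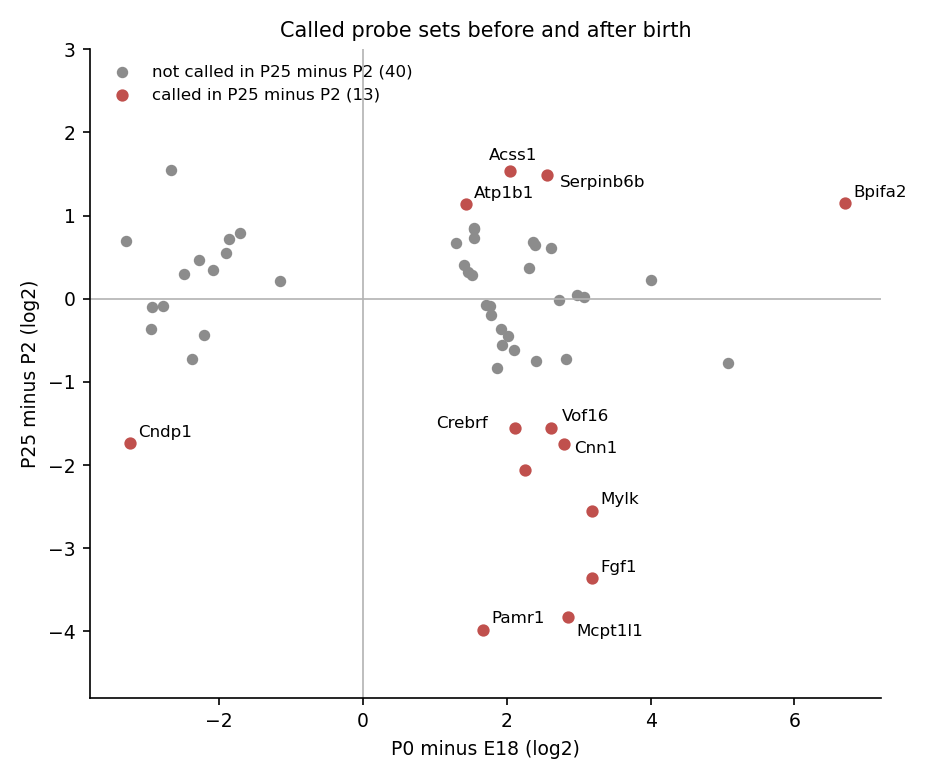
Difference between P0 and E18 (x axis) against difference between P25 and P2 (y axis), in log2 units, for the 53 called probe sets; red points passed in P25 minus P2. Of the 38 probe sets right of 0, 4 passed above 0 and 8 below it, with Pamr1 lowest at -3.98.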

How the data were processed

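Affymetrix rat genome expression arrays were analysed for E18, E20 and P0, with P2 and P25 for the follow-up after birth (3 arrays each). Per the labels and the study's methods, total RNA of captured cells (1.5 or 4.5 ng; which array had which amount is not stated) was amplified as a whole transcriptome. The authors deposited RMA values in log2 units, which involves background correction, a common distribution for all arrays and 1 summary per probe set. These log2 values were used as deposited. Of 31099 probe sets, 57 controls were left out. A symbol was taken where the platform annotation gave a single one (20826 probe sets, 14217 genes). Arrays have no read depth, so precision depends on how many there are.

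The main fit was limma 3.58.1 in R 4.3.3 on all 27 arrays with 1 coefficient per age, two-sided, adjusted by Benjamini and Hochberg over 31042 probe sets, threshold 0.05. It was tried on simulated data in which each array varied independently, so the signal shared by arrays of one replicate number was not reproduced there. Arrays of an age came from separate litters. A gene in a list was represented by its probe set with the highest mean. The arrays compared, the gene lists and the markers were chosen with earlier results of these data known, so no list is independent evidence. Named genes were the 12 largest rises and falls without overlap, the 6 largest of each step, up to 4 per list by size of t, the 3 highest genes per marker list, and all secreted proteins and acinar factors; others are said to be chosen after their values were seen. Alternatives were other scalings, filters and spreads, covariates, a replicate block and leaving out arrays. Promoters came from RefSeq (GRCr8).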

Additional observations from a re-analysis of the deposited data

How the results depend on the processing

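All 53 transcripts called between E18 and P0 kept their direction in each of 17 other fits that tested them. In fits that changed only the spread, the filter or the arrays used, this was fixed in advance. The E18 and P0 arrays of the 53 did not overlap, so it is no sign of stability. The count of 53 became 3 with the 9 arrays of E18, E20 and P0 alone, 83 with array weights and 31 with the muscle, epidermis and cartilage covariates (23 of them among the 53). It was between 37 and 73 with median centring, quantile normalisation, the probe sets of lowest mean level left out, the trended and robust variance, the methods' ANOVA and the sex-linked covariate. Leaving out 1 array gave 18 to 94 calls (18 without P0 replicate 2, 20 without P0 replicate 3, 92 without E18 replicate 3 and 94 without E18 replicate 2). Without the 3 arrays numbered 1 together, 39 passed, 18 of them among the 53. Those outside the 53 included a probe set of the cartilage collagen Col2a1 (-3.66, limma adjusted p = 0.0418). Bpifa2 passed in all 17, Bpifa2f, Csap1, Mylk, Gldc, Cndp1 and Tifab in all but the fit to the 9 arrays alone, and Vof16 failed in 13, Fez1 in 12 and H3c1 in 11.

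For E20 against E18 the count of 5 became 0 with the 9 arrays alone, 10 with quantile normalisation, 12 with the trended variance and 17 both with array weights and without the arrays numbered 1, with 3 to 24 on leaving out 1 array (3 without E20 replicate 2, 20, 21 and 24 without E18 replicates 1, 2 and 3, and 11 without E20 replicate 1). For P0 against E20 the count of 4 became 0 with the 9 arrays alone, 13 with array weights and 15 without the arrays numbered 1, with 3 to 8 on leaving out 1 array (8 without E20 replicate 2, 7 without P0 replicate 1). The single difference of steps became 0 with the 9 arrays alone and with the probe sets of lowest mean level left out, 2 with the covariates and 9 without the arrays numbered 1, with 1 to 5 on leaving out 1 array (5 without E20 replicate 2, 3 without E20 replicate 1, and 2 each without E18 replicate 1, E18 replicate 2 and E20 replicate 3). For P25 against P2 the count of 5769 was between 4128 and 6259 in the other fits, and 2785 to 5750 on leaving out 1 array, lowest without P2 replicate 2 (2785) and P2 replicate 1 (3388). Beside the counts of 0, limma gave 1548, 1100 and 994 probe sets at an unadjusted p below 0.05 with the 9 arrays alone, and 716 for the steps with the low probe sets left out. The cause of these moves was not tested.

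The arrays of an age came from separate litters, and whether a replicate number marks anything shared between ages is not stated in the sources used here. Of the pairs of arrays with the same number among these ages, 6 of 9 had deviations that correlated above 0.1 (0.027 to 0.459, against -0.279 to 0.140 for different numbers). Deviations within an age cancel out, so positive values for the same number by themselves bring negative ones for different numbers. Over all 9 ages the median correlation was 0.014 for the same number and -0.009 for different numbers. For 7 of the 9 arrays the nearest deviation was that of an array with the same number. With the replicate number as a block, 52 passed between E18 and P0, of which 44 were among the 53. H3c1 (adjusted p = 0.0592), Vof16 (0.0645) and Fez1 (0.0671) no longer passed. The block gave 5 between E18 and E20, 7 between E20 and P0, 1 for the steps and 6074 between P2 and P25.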
